A study of Homo sapiens with 4 samples.

Results

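The genes described here are the inhibitor of DNA binding genes ID1, ID2, ID3 and ID4, the inhibitory SMAD genes SMAD6 and SMAD7, the decoy receptor gene BAMBI, the SMAD corepressor gene SKIL, and the transcriptional repressor gene HES1. They were chosen by name, as members of the ID family and as known targets and feedback inhibitors of BMP and TGF-beta signalling. The rule used no measured value, though earlier results of these data were known. All 9 were found among the 56271 rows of the count table, and all 9 were among the 12205 genes tested, those with an RPKM (count scaled by exonic length and library total) above 1 in at least 2 of the 4 libraries.

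SKBR3 is an established breast cancer cell line with amplified HER2. Its poly-A RNA was sequenced in 2 eGFP control libraries and 2 VIRMA-overexpressing libraries, to find the transcripts that differ when VIRMA, a scaffold of the complex that writes N6-methyladenosine on RNA, is raised. Both groups carried a lentiviral vector with the human ubiquitin C promoter. The control vector expressed eGFP, and the other expressed full-length HA-tagged VIRMA joined to eGFP through a p2A peptide. Cells positive for eGFP were sorted and expanded in both groups. Whether the libraries of a group came from 1 transduction or from separate ones is not stated. Chance differences between the transduced populations and an effect of VIRMA therefore cannot be told apart. The treatment text of all 4 libraries describes a hypoxia chamber, whereas the methods of the study describe ordinary culture for RNA sequencing. The oxygen level is therefore uncertain and was taken to be equal in both groups. The study calls the libraries biological duplicates.

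BMP ligands bind type I and type II receptor kinases, which phosphorylate SMAD1, SMAD5 and SMAD9, and these enter the nucleus with SMAD4 and raise transcription of ID1, ID2 and ID3. ID proteins have a helix-loop-helix domain and no DNA-binding basic region, and they hold E-proteins and other basic helix-loop-helix factors away from DNA. SMAD6, SMAD7, BAMBI and SKIL are induced by BMP or TGF-beta signalling and dampen it, at the receptor or at the SMAD complex. HES1 is best known as a target of Notch signalling. In breast epithelium, ID1 and ID3 are known for roles in proliferation and metastasis.

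Counts per library ranged from 81446932 to 86375474. VIRMA, listed as KIAA1429, was counted 710 and 682 times in the control libraries against 3437 and 3460 in the VIRMA-overexpressing libraries, a log2 fold change of 2.29 (edgeR adjusted p = 9.74e-26, SE 0.0685), which checks the labels. The luminal HER2 markers were all present: 7 of 7 were tested, and their summed level was 28860 to 29360 CPM (counts scaled to library size after TMM normalization) in the controls and 27480 to 27760 CPM in the VIRMA-overexpressing libraries. Single markers went both ways, with 3 higher and 3 lower, among them KRT7 at a log2 fold change of 0.49 and KRT8 at -0.51 (edgeR adjusted p = 3.27e-20 and 1.7e-22). The 10 fibroblast markers summed to 13.6 to 14.1 CPM and to 8.6 to 9.22 CPM, nearly all of it from COL1A1 (13.4 ± 0.29 and 8.68 ± 0.384 CPM, SD, n = 2). For 4 of the 10, both controls were above both other libraries. LUM, PDGFRA and POSTN were at 0 in both VIRMA-overexpressing libraries and had at most 3 counts in a control. The 11 erythroid markers summed to 20.7 to 28.4 CPM in the controls and to 0.495 to 0.566 CPM in the VIRMA-overexpressing libraries. For 9 of the 11, both controls were above both other libraries, and HBB, the beta-globin gene, was counted 2137 and 1543 times in the control libraries against 0 in both others. HBD, SLC4A1 and AHSP were among those also at 0 in the VIRMA-overexpressing libraries, and GYPB was at 0 in all 4. This marker difference runs with the groups in every result that follows, and its part in them was not tested. In bulk RNA, fewer cells with a transcript and less transcript per cell cannot be told apart.

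All 9 genes had a start-site window in the RefSeq table of build GRCh38.p14, and sequence before the start is shown for 5 of them. ID1, ID4, SMAD6, SKIL and HES1 were picked after their values and matches were seen, since they moved in different directions and each holds a searched motif close to its start. The strand is plus for all 5, and capitals mark matches, on either strand, to the CCAAT box, to the TATA box motif TATAAA, to the cyclic AMP response element TGACGTCA, to the core TGGGAA bound by the Notch effector RBPJ, and to the palindrome GTCTAGAC bound by SMAD proteins. The windows are chr20:31605169-31605282 for ID1, chr6:19837250-19837369 for ID4, chr15:66702116-66702231 for SMAD6, chr3:170357595-170357677 for SKIL and chr3:194136028-194136144 for HES1. The last 4 bases shown for SMAD6 lie in its first exon as deposited.
ID1: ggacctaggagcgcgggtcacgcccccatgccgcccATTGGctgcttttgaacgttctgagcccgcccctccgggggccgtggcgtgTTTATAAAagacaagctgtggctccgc
ID4: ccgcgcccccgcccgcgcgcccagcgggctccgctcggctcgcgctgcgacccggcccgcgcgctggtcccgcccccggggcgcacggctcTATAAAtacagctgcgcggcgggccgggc
SMAD6: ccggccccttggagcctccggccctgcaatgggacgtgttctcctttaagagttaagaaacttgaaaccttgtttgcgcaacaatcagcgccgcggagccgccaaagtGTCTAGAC
SKIL: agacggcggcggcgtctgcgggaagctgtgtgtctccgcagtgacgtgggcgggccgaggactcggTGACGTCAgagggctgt
HES1: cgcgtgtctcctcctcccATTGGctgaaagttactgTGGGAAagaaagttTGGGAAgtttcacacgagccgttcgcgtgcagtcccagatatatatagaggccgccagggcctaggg

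Motifs were searched on both strands in windows from 250 bases before to 50 bases after each start, and 35116 such windows served as the comparison. The palindrome GTCTAGAC was in 0.202% of windows and, among the 9 genes, in SMAD6, 12 bases before the start. The response element TGACGTCA was in 1.85% of windows and in SKIL, 54 bases before the start. The RBPJ core TGGGAA was in 24% of windows. HES1 held it 84 and 70 bases before the start, and 1 of the 3 SMAD7 windows 185 and 56 bases before. The motif TATAAA was in 11.5% of windows and lay 29 bases before the start of ID4. In ID1 matches on both strands overlapped, at 33 and 31 bases, and 1 of the 3 SMAD7 windows held it at 35 bases. A further SMAD-bound motif, GGCGCC, was in 19.2% of windows and in BAMBI and SKIL, and CCAAT was in 34.6% of windows and in 6 of the 9 genes. These are matches of letters and not measured binding.

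Of the 9 genes, 5 fell (ID1, ID2, ID3, SMAD6 and HES1), 3 rose (ID4, BAMBI and SKIL) and SMAD7 did not pass an edgeR adjusted p of 0.05. In the whole table, 71% of the tested genes passed in either direction, 35.1% upwards and 35.9% downwards, so that 8 of 9 members stands against a high background. Only ID4, 1 of 9, also passed a 2-fold change, which 7.46% of the tested genes did in either direction, 4.52% upwards and 2.93% downwards. CPM values of the groups did not overlap for any of the 9, as for 84.3% of the tested genes. The median log2 fold change of the 9 genes was -0.22, against 0.01 over all tested genes.

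**Figure D1:**
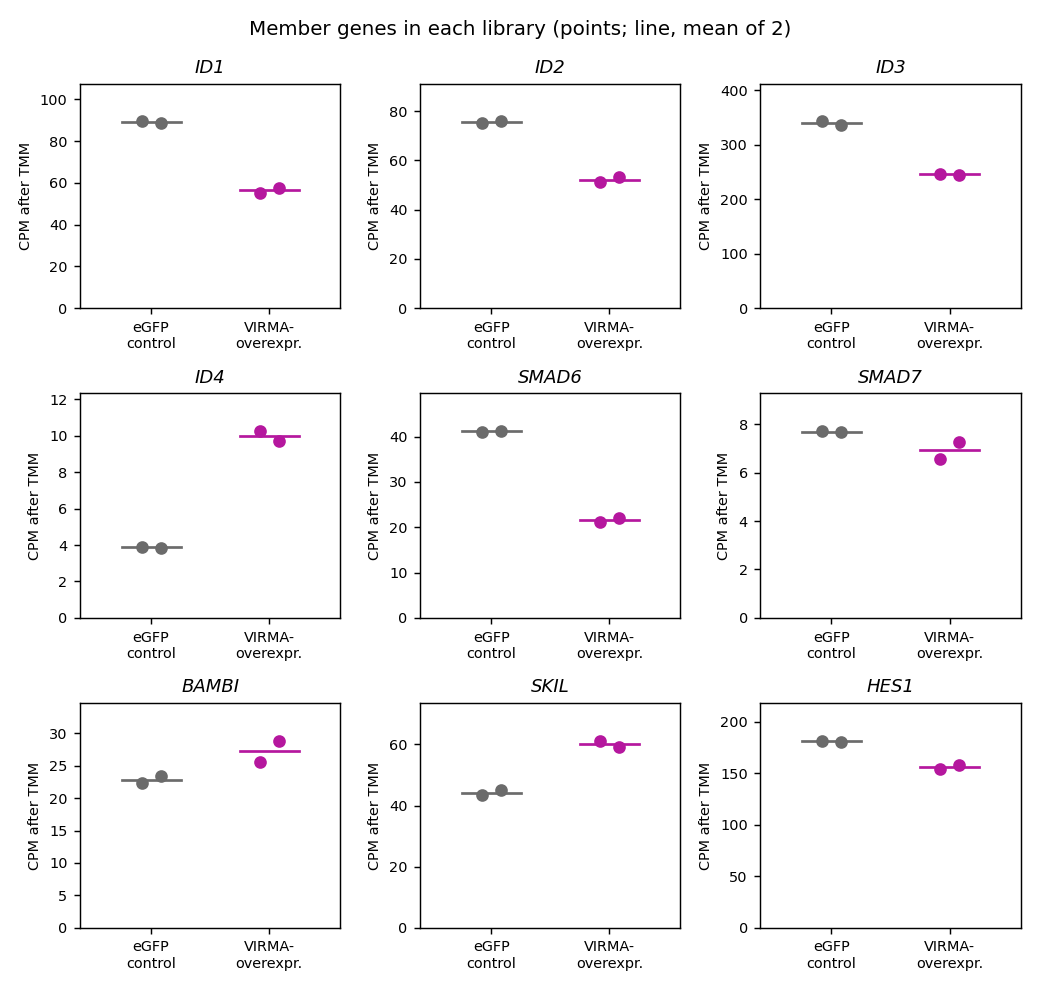
CPM after TMM scaling (y axis, starting at 0) of each of the 9 genes in the 2 eGFP control and the 2 VIRMA-overexpressing libraries; points are libraries and lines are group means. ID1, ID2, ID3 and SMAD6 lie lower and ID4 and SKIL higher in both VIRMA-overexpressing libraries, while the SMAD7 points lie close together across groups.

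The ID genes did not move together: ID1, ID2 and ID3 fell while ID4 rose. ID1 (chr20:31605283-31606515, plus strand) was at 89.6 and 88.4 CPM in the controls and at 55.3 and 57.6 CPM in the VIRMA-overexpressing libraries. Both VIRMA-overexpressing libraries were well below both controls. The means were 89.0 ± 0.83 and 56.4 ± 1.62 CPM (SD, n = 2), and the fitted log2 difference was -0.66, or 1.58-fold lower (95% interval -0.74 to -0.58, SE 0.0403), with an edgeR adjusted p of 1.15e-16.

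ID2 (chr2:8678845-8684453, plus strand), a family member known in mammary and immune cell differentiation, was at 75.0 and 76.0 CPM in the controls and at 51.1 and 53.3 CPM in the VIRMA-overexpressing libraries. The groups were apart by far more than the libraries within them. The log2 fold change was -0.53 (95% interval -0.62 to -0.45, SE 0.0419), with an edgeR adjusted p of 1.08e-13. An antisense gene, ID2-AS1, shares exonic sequence with ID2 on the opposite strand. It had 62, 30, 55 and 43 counts, in the order control 1, control 2, VIRMA-overexpressing 1 and 2, against 4332 or more for ID2 in every library. The setting of strand in the counting was not stated, so reads of the pair cannot be assigned with certainty.

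ID3 (chr1:23557918-23559794, minus strand) had the highest level per length of the 9 genes in both groups. It was at 343 and 336 CPM in the controls and at 246 and 245 CPM in the VIRMA-overexpressing libraries. Again the VIRMA-overexpressing libraries were both lower, by a log2 fold change of -0.47 (95% interval -0.53 to -0.41, SE 0.0303), with an edgeR adjusted p of 5.11e-16.

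ID4 (chr6:19837386-19840684, plus strand), which in other systems can oppose the action of its relatives, was low in the controls. It had 321 and 320 counts there, or 3.9 and 3.86 CPM, and 870 and 803 counts, or 10.3 and 9.7 CPM, in the VIRMA-overexpressing libraries. Both VIRMA-overexpressing values were more than 2-fold above both controls. The log2 fold change was 1.36, or 2.57-fold (95% interval 1.12 to 1.61, SE 0.121), with an edgeR adjusted p of 2.36e-12, and 230 tested genes (1.88%) had a larger one. Tested against a 2-fold change rather than against 0, ID4 passed with an edgeR adjusted p of 0.018. A further row, RP4-625H18.2, lies opposite an intron of ID4 and had 26, 47, 38 and 43 counts in the same order of libraries, with no exon shared.

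The rise of ID4 did not offset the fall of the others in summed level per length. The 4 ID genes together were at 289 and 283 RPKM in the controls and at 214 and 215 RPKM in the VIRMA-overexpressing libraries. ID3 made up 63.8% and 63.4% of that sum in the controls against 65.4% and 64.5%, and ID1 24.3% in both controls against 21.4% and 22.1%. ID4 made up 0.555% and 0.559% in the controls against 2.09% and 1.96% with VIRMA overexpressed.

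The inhibitory SMADs also parted. SMAD6 (chr15:66702228-66782848, plus strand), which acts mainly on BMP receptors and SMAD1, was at 41.0 and 41.3 CPM in the controls and at 21.1 and 22.1 CPM in the VIRMA-overexpressing libraries. Both VIRMA-overexpressing values were far below both controls. The log2 fold change was -0.93, or 1.91-fold lower (95% interval -1.05 to -0.81, SE 0.0579), with an edgeR adjusted p of 1.77e-16, and 3.88% of the tested genes had a lower one. SMAD6 lies just short of the 2-fold limit, which is inside its interval.

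SMAD7 (chr18:48919853-48950711, minus strand), which inhibits both TGF-beta and BMP receptors, was at 7.72 and 7.66 CPM in the controls and at 6.57 and 7.26 CPM in the VIRMA-overexpressing libraries. The groups did not overlap, but the VIRMA-overexpressing libraries lay about as far from each other as from the controls. The log2 fold change was -0.15 (edgeR adjusted p = 0.231, SE 0.115), with a 95% interval of -0.39 to 0.08. The ratio of SMAD6 to SMAD7 in RPKM was 2.29 and 2.32 in the controls against 1.38 and 1.31 with VIRMA overexpressed.

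**Figure D2:**
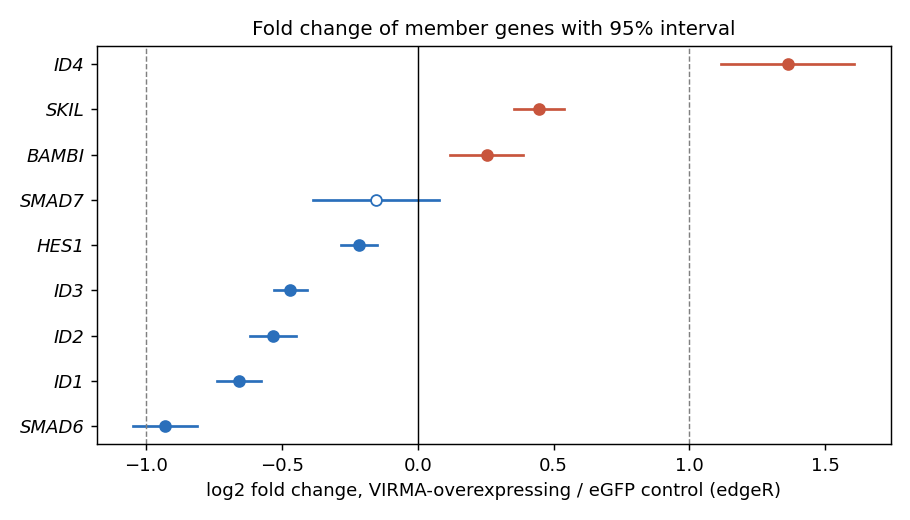
Log2 fold change, VIRMA-overexpressing over eGFP control (x axis), of each of the 9 genes with its 95% interval; filled points passed an edgeR adjusted p of 0.05, and dashed lines mark a 2-fold change. The interval of ID4, 1.12 to 1.61, lies beyond the 2-fold line, that of SMAD6 reaches -1.05, and that of SMAD7 spans 0.

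BAMBI (chr10:28677342-28682939, plus strand) encodes a receptor-like membrane protein without a kinase domain that blocks TGF-beta family receptors. It was at 22.3 and 23.4 CPM in the controls and at 25.6 and 28.9 CPM in the VIRMA-overexpressing libraries. Both VIRMA-overexpressing libraries were higher, but replicate 2 more so than replicate 1. The log2 fold change was 0.25 (95% interval 0.12 to 0.39, SE 0.0662), with an edgeR adjusted p of 0.000999. Without VIRMA-overexpressing replicate 2 it was 0.17, with an edgeR adjusted p of 0.0601, so the call rests on that library.

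SKIL (chr3:170357678-170396835, plus strand) encodes SnoN, a corepressor of SMAD complexes. It was at 43.4 and 45.1 CPM in the controls and at 61.2 and 59.3 CPM in the VIRMA-overexpressing libraries, so that both of the latter were clearly higher. The log2 fold change was 0.45 (95% interval 0.35 to 0.54, SE 0.0453), with an edgeR adjusted p of 7.5e-11. Its close relative SKI, a gene chosen for naming after its values were seen, fell by 0.53 on the log2 scale (edgeR adjusted p = 5.85e-14). The ratio of SKIL to SKI in RPKM was 0.352 and 0.384 in the controls against 0.76 and 0.692 with VIRMA overexpressed.

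HES1 (chr3:194136145-194138732, plus strand) was at 181 and 180 CPM in the controls and at 154 and 158 CPM in the VIRMA-overexpressing libraries. Both were lower, by a small amount, with a log2 fold change of -0.22 (95% interval -0.28 to -0.15, SE 0.0325), with an edgeR adjusted p of 3.07e-07. That interval leaves out the choice of scaling. Over the alternatives with all 4 libraries, HES1 ranged from -0.26 to -0.13, the latter with library totals. Of the tested genes, 31.9% had a lower log2 fold change.

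**Figure D3:**
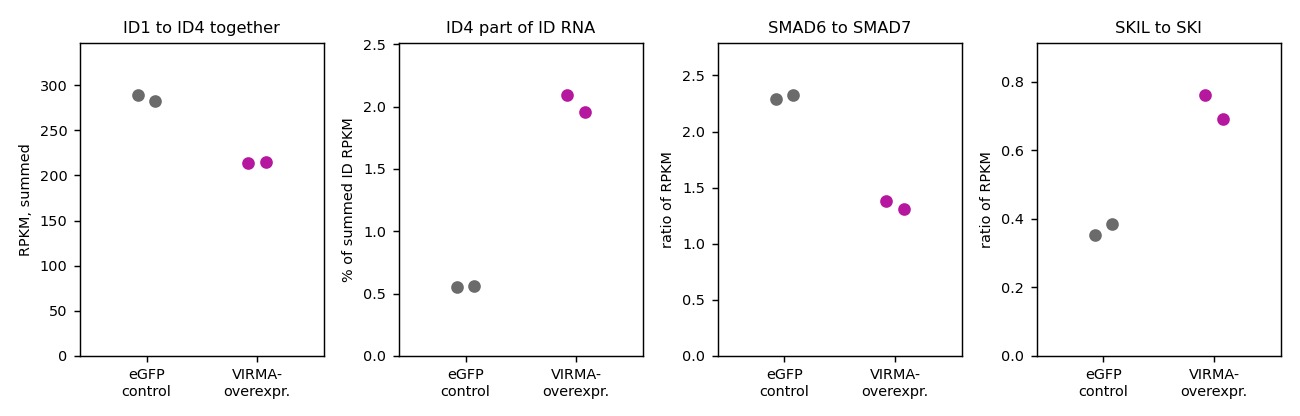
Summed RPKM of ID1 to ID4, the ID4 percentage of that sum, the SMAD6 to SMAD7 ratio and the SKIL to SKI ratio of RPKM (y axes, starting at 0) in each of the 4 libraries, by group. The ID sum and the SMAD6 to SMAD7 ratio lie lower and the ID4 percentage and the SKIL to SKI ratio higher in both VIRMA-overexpressing libraries.

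In level per length, the order in the controls was ID3 at 182 ± 3.53 RPKM, HES1 at 84.4 ± 0.634, ID1 at 69.5 ± 0.904, ID2 at 33.0 ± 0.184, BAMBI at 9.5 ± 0.279, SKIL at 5.47 ± 0.128, SMAD6 at 4.62 ± 0.00382, SMAD7 at 2.0 ± 0.0185 and ID4 at 1.59 ± 0.0165 (SD, n = 2). Each neighbour in that order was apart by more than these SDs. In the VIRMA-overexpressing libraries the first 6 kept their places, and ID4, at 4.34 ± 0.19 RPKM, stood above SMAD6 at 2.57 ± 0.0752 and SMAD7 at 1.91 ± 0.127. The order of ID4 and SMAD6 there depends on the deposited exonic length, 2344 bases for ID4 and 8563 for SMAD6. In CPM, SMAD6 at 21.6 ± 0.722 stayed above ID4 at 9.98 ± 0.396 in these libraries.

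The pathway around these genes was described with 10 lists that together held 217 genes, of which 110 were tested. Of these 110, 34 rose, 52 fell and 24 did not pass, and 1 rose and 6 fell by more than 2-fold. Over all tested genes, 35.1% rose and 35.9% fell. The split of the 110 depended on scaling: 42 rose and 42 fell with library totals, and 41 and 44 with upper-quartile scaling. Their median log2 fold change was -0.08, against 0.01 over all tested genes, and was 0.01 with library totals.

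In the list of BMP and activin family ligands, 7 of 30 genes were tested, 5 fell and 1 rose. Among the 5 was BMP1, which despite its name encodes a protease and not a ligand (log2 fold change -0.44, edgeR adjusted p = 0.000104). BMP4 did not pass (-0.06, edgeR adjusted p = 0.71). BMP7, which signals through the SMAD branch that induces ID genes, was at 77.1 ± 0.508 RPKM in the controls and at 43.5 ± 1.01 in the VIRMA-overexpressing libraries. Its log2 fold change in the TMM-scaled fit was -0.91 (edgeR adjusted p = 2.91e-24, SE 0.0305). GDF11, an activin-like ligand, fell past 2-fold from 1.64 ± 0.0894 to 0.801 ± 0.0573 RPKM (log2 fold change -1.12, SE 0.0968, edgeR adjusted p = 1.3e-12). INHBB, a subunit of activin B and the ligand gene with the highest level, had a log2 fold change of -0.23 (edgeR adjusted p = 1.41e-08). INHA, the inhibin alpha subunit, was at -0.35 with an edgeR adjusted p of 0.0166, a call that was lost with library totals or upper-quartile scaling.

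Of the 9 TGF-beta ligands and latent binding proteins, 4 were tested, 2 rose and 1 fell. TGFB3 fell (log2 fold change -0.23, edgeR adjusted p = 1.79e-07) and LTBP4, which anchors latent TGF-beta in the matrix, rose (log2 fold change 0.36, edgeR adjusted p = 5.88e-11), while LTBP1 did not pass (-0.04, edgeR adjusted p = 0.211). LTBP1 passed under 2 other filters on low counts and changed sign with library totals or upper-quartile scaling. All 3 of the 21 extracellular BMP antagonists that were tested fell, where 35.9% of all tested genes did. Their log2 fold changes were -0.62 for FSTL3 (edgeR adjusted p = 4.19e-08), -0.57 for TWSG1 (2.02e-06) and -0.26 for CRIM1 (0.000772).

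Among the receptors, 10 of 20 were tested, of which 5 fell, 1 rose and 4 did not pass. The 1 that rose was ACVR2B, at a log2 fold change of 0.57 (edgeR adjusted p = 1.31e-07). With library totals or upper-quartile scaling, 3 fell and 3 rose. TGFBR1, the type I receptor for TGF-beta, went from 17.9 ± 0.462 to 9.49 ± 0.245 RPKM. Its log2 fold change in the TMM-scaled fit was -0.99 (edgeR adjusted p = 1.66e-22, SE 0.0382), and it passed the 2-fold limit under the 3 other filters on low counts. ENG, the co-receptor endoglin, fell by 0.40 on the log2 scale (edgeR adjusted p = 2.76e-09). ACVR1B, an activin receptor, was at -0.14 with an edgeR adjusted p of 0.0319 and lost its call under 3 alternatives.

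Of the 6 receptor-activated and common SMADs, 5 were tested, 4 rose and none fell, where 35.1% of all tested genes rose. SMAD2 had a log2 fold change of 0.40 (edgeR adjusted p = 5.17e-10) and SMAD3 of 0.25 (0.000361). The common SMAD4 was at 0.40 (edgeR adjusted p = 0.000226), and SMAD5, of the BMP branch, at 0.26 (0.011). SMAD1, the BMP branch member with the highest level, was at 1.77 ± 0.0252 RPKM in the controls against 2.09 ± 0.105 and did not pass (log2 fold change 0.16, edgeR adjusted p = 0.113), though it did with library totals or upper-quartile scaling.

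Other regulators of the SMAD pathway were divided, with 10 of 23 tested genes higher and 9 lower out of 28 listed. FKBP1A, which binds and restrains type I receptors, fell (log2 fold change -0.27, edgeR adjusted p = 3.75e-10). PMEPA1, a TGF-beta-induced feedback inhibitor, fell as well (-0.43, edgeR adjusted p = 6.29e-15). TOB1 was at 0.08 with an edgeR adjusted p of 0.0308, and its call was lost under 4 alternatives.

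Of 20 other BMP-SMAD target genes, 9 were tested, with 4 lower and 2 higher. The 2 higher were SOX9, which had the largest change of the list (log2 fold change 0.89, edgeR adjusted p = 2.3e-11), and DLX2 (0.28, edgeR adjusted p = 0.0256). With DESeq2, 1 gene of the list was higher. The transcription factor genes GATA2 (log2 fold change -0.76, edgeR adjusted p = 2.97e-19) and DLX3 (-0.38, edgeR adjusted p = 9.6e-10) fell. MSX2 was at -0.13 with an edgeR adjusted p of 0.0196, lost with library totals or upper-quartile scaling. In the 28 TGF-beta and activin targets, 18 were tested, with 6 higher and 8 lower. SNAI1, a repressor of epithelial genes, fell past 2-fold (log2 fold change -1.18, SE 0.141, edgeR adjusted p = 3.07e-09), and TAGLN, an actin-binding protein gene, rose past it (1.18, edgeR adjusted p = 5.47e-15, SE 0.0827). CTGF (-0.63, edgeR adjusted p = 4.83e-18) and CYR61 (-0.40, edgeR adjusted p = 6.24e-14), which encode matrix proteins, fell, and GADD45B, a stress response gene, rose (0.21, edgeR adjusted p = 3.33e-06).

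The partners that ID proteins hold were mostly too low to test: of 18 E-protein and bHLH genes 4 were tested, and 2 rose and 2 fell. TCF3, which encodes the E-proteins E12 and E47, went from 19.6 ± 0.195 to 15.0 ± 0.192 RPKM (log2 fold change -0.47, SE 0.0358, edgeR adjusted p = 4.74e-14). TCF12, the other E-protein gene tested, went the opposite way, from 1.68 ± 0.126 to 2.47 ± 0.0238 RPKM (log2 fold change 0.47, SE 0.0713, edgeR adjusted p = 3.36e-07). BHLHE40 fell (-0.55, edgeR adjusted p = 4.98e-13) and ASCL2 rose (0.42, edgeR adjusted p = 0.00014). The summed RPKM of ID1 to ID4 was 13.4 times that of TCF3, TCF4 and TCF12 together in each control, and 12.1 and 12.4 times in the VIRMA-overexpressing libraries. The size of this ratio depends on the deposited exonic lengths, such as 27961 bases for TCF4 and 9446 for TCF12 against 1233 for ID1. It is therefore not a ratio of molecules.

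The Notch pathway and HES/HEY genes, the list around HES1, had the most tested genes. Of 41 listed, 28 were tested, with 15 lower, 6 higher and 7 not passed, where 35.9% of all tested genes fell and 35.1% rose. The largest rises among the 6 were those of TLE2 (log2 fold change 0.43, edgeR adjusted p = 7.31e-09) and RFNG (0.35, edgeR adjusted p = 7.01e-09). Of the 28, 4 fell past 2-fold, where 2.93% of all tested genes did. HES6, a HES family gene that can oppose HES1, went from 13.3 ± 0.225 to 4.07 ± 0.137 RPKM (log2 fold change -1.79, SE 0.0758, edgeR adjusted p = 2.83e-21). NRARP, a Notch-induced feedback inhibitor, was at -1.36 (edgeR adjusted p = 1.41e-13), LFNG, a glycosyltransferase acting on Notch receptors, at -1.14 (4.6e-11), and the ligand gene JAG2 at -1.07 (3.55e-12). JAG2 was the one of these that did not pass the 2-fold limit with library totals or upper-quartile scaling. HES4, at 139 ± 2.26 RPKM in the controls, also fell (-0.52, edgeR adjusted p = 1.77e-15), as did APH1A, a gamma-secretase subunit gene (-0.46, edgeR adjusted p = 8.48e-14). NCSTN, another subunit gene, did not pass (-0.03, edgeR adjusted p = 0.416).

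**Figure D4:**
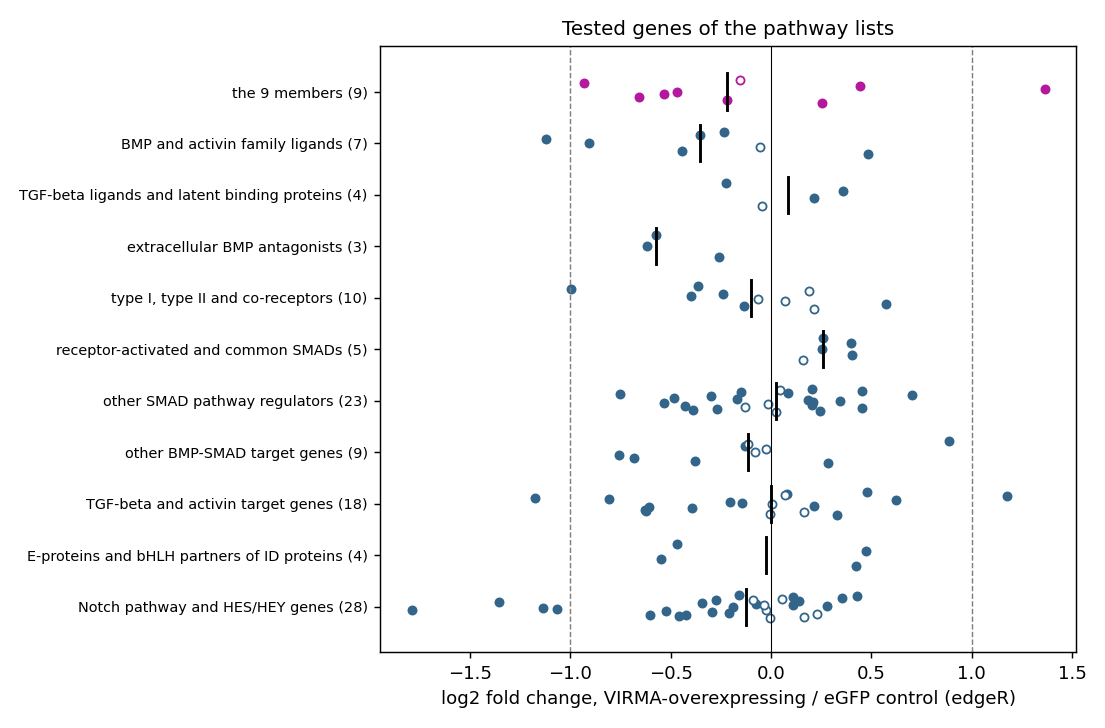
Log2 fold change, VIRMA-overexpressing over eGFP control (x axis), of the 9 genes and of every tested gene of the 10 pathway lists (rows, number tested in brackets); filled points passed an edgeR adjusted p of 0.05, black bars are list medians and dashed lines mark a 2-fold change. The 5 tested receptor-activated and common SMADs lie to the right of 0 and the 3 tested BMP antagonists to the left.

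The genes whose pattern over the 4 libraries was most like that of each of the 9 were found by the root mean square difference in log2 CPM, each gene centred on its own mean. For ID1 these were PLEKHF1, APEX2 and SZRD1, at 0.000875 to 0.009. For ID4 they were ATP8B2, CRELD1 and NEAT1, at 0.0146 to 0.0257, and for SMAD6 they were PLP2, HPCAL1 and BMP7, at 0.00954 to 0.0124. With 4 libraries in 2 groups, such a likeness mostly reflects a similar fold change. HNRNPF, LGMN and POLD2 were nearest to ID2, and CCT2, PHTF2 and FRMD8 to ID3. FIG4, YBEY and KDF1 were nearest to SMAD7, and JDP2, AGTPBP1 and TMEM51 to BAMBI. LRRFIP1, CLCN3 and BICDL2 were nearest to SKIL, and PTPN18, C15orf61 and RNF25 to HES1. Among the 9 genes themselves, ID2 and ID3 were the closest pair, at 0.0446, and ID4 and SMAD6 the farthest apart, at 1.14.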

How the data were processed

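The authors trimmed reads with Trimmomatic 0.39, aligned them with STAR 2.5.2a and used featureCounts for gene counts. The deposited counts are raw and come with exon coordinates (GRCh38) and exonic length. Strand and multi-mapping settings are not given in the sources used here. Column names identified the controls only; the other 2 columns, named by a number, were taken as VIRMA-overexpressing.

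Genes with RPKM above 1 in at least 2 libraries were compared by edgeR 4.0.16 quasi-likelihood testing (R 4.3.3), TMM scaling and Benjamini-Hochberg adjustment over 12205 genes. Thresholds were an adjusted p of 0.05 and a log2 fold change of 1 in either direction. The test was checked on simulated counts. CPM is after TMM, and RPKM uses library totals. Log2 fold changes are from the TMM-scaled fit, so they differ from the ratio of RPKM values printed beside them.

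The 9 genes and all lists were chosen with earlier results of these data known. Named from each list were genes past both thresholds and the 3 others of highest mean RPKM. SKI, BMP1, BMP4, SMAD4, SMAD5, TCF12, SOX9, DLX2, ACVR2B, TLE2 and RFNG were named besides these, after their values were seen. Alternatives were DESeq2 1.42.0, limma-voom (limma 3.58.1), other scalings and filters, a replicate block, a test against 2-fold and leaving out each library. Replicates measure the spread between these libraries only. Promoter sequences are from RefSeq GRCh38.p14.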

Additional observations from a re-analysis of the deposited data

How the results depend on the processing

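With all 4 libraries, all 81 values of the 9 genes under 9 alternatives had the same sign and the same call at an adjusted p of 0.05. With 1 library left out, 35 of 36 did. The exception was BAMBI without VIRMA-overexpressing replicate 2, with a log2 fold change of 0.165 and an edgeR adjusted p of 0.0601; leaving out each library in turn gave BAMBI 0.165 to 0.336. Over the alternatives, ID4 ranged from 1.32 to 1.45 and SMAD6 from -0.97 to -0.84, never past 2-fold, while the adjusted p of SMAD7 was 0.143 to 0.637. Library totals moved the median of all genes by 0.086 and upper-quartile scaling by 0.072 on the log2 scale. With these scalings, 42 genes of the pathway lists were higher and 42 lower, and 41 and 44, respectively, against 34 and 52; filterByExpr gave 35 and 66. Counts of single lists moved by more than 1.5 times in 13 of 120 cases, mostly in lists of few tested genes.

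The replicate numbers did not pair the libraries (correlation of same-numbered deviations 0.0346 over 12205 genes, with 2 pairs only). With the replicate number as a block, ID4 was at 1.36 and SMAD6 at -0.93, and no call of the 9 genes changed. The biological coefficient of variation was 3.93%. The 95% interval of the SMAD7 difference was -0.39 to 0.08.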

Other observations

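The genes beside the 9 on their chromosomes were also read, as the nearest tested gene on each side. ID1 lies between HM13 and BCL2L1, a regulator of apoptosis, which had log2 fold changes of -0.04 (edgeR adjusted p = 0.219) and 0.02 (0.738), against -0.66 for ID1. ID4 lies between RNF144B, 1368512 bases away, at 0.80 (edgeR adjusted p = 9.37e-15), and MBOAT1, 261461 bases away, at -0.06 (0.769). SMAD6 lies between ZWILCH, a kinetochore gene at -0.52 (edgeR adjusted p = 3.23e-07), and SMAD3, 280915 bases away, which rose by 0.25 (0.000361) while SMAD6 fell. These neighbours were chosen for description after the values were seen.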
